A study of Drosophila melanogaster with 4 samples.

Results

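The large subunit of the cytosolic ribosome in Drosophila melanogaster is encoded by genes named RpL, and their transcripts were compared between the guts of a dwdr4 mutant and of wild-type females. The genes were taken by symbol, as every gene of the deposited count table whose symbol starts with RpL followed by a digit or by P. This gave 54 of 17807 genes, of which 44 carry no paralog label and 10 carry one (a final a or b, a hyphen and a number, or -like). The comparison rests on 4 RNA-seq libraries, 2 from WT (the strain yw) and 2 from wh7. The allele wh7 is a mutation of dwdr4, which is the fly ortholog of the tRNA methyltransferase subunit WDR4. Each library was made from the whole guts of 20 to 30 females aged 7 days. The mutation was present in every cell of the wh7 animals, and WT was a strain of its own, so that allele and strain background cannot be told apart. As the pools hold whole guts with all their cell types, fewer cells of a type and less RNA per cell cannot be told apart either.

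The large subunit holds the catalytic centre that joins amino acids, the tunnel through which the new protein leaves, and the stalk that recruits the elongation factors. In growing cells the mRNAs of its proteins are among the most abundant, and they are made in step with those of the small subunit (RpS genes) and with ribosomal RNA. Many Drosophila RpL genes are Minute loci, at which loss of a single copy slows development and shortens the bristles. In the gut, ribosome production is known to be high in dividing and growing progenitors.

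The libraries held 93603837 to 101610356 counts each. The mutated gene itself, listed as wuho, had 1463 and 1338 normalized counts (counts scaled to a common library size) in WT against 2 and 3 in wh7, so the labels fit the libraries. WT replicate 1 stood apart from WT replicate 2 for many genes outside the RpL set, and results that rest on it are given without it. Among the cell type markers, the summed level of 8 enteroendocrine genes was 490 and 435 CPM (counts scaled to a common library total) in WT against 239 and 262 in wh7, and all 8 were lower. The 7 enterocyte markers summed to 29668 and 35989 CPM in WT against 43260 and 40439 in wh7, with 3 of 7 higher and none at 0. The 7 mitotic cycle genes summed to 21.5 and 21.6 CPM in WT against 15 and 15.9 in wh7, none of them higher. Of 8 progenitor markers 7 were analysed here (the symbol esg was not matched), at 221 and 241 CPM in WT against 230 and 220 in wh7. Of these, 2 of 7 were higher, and the stem cell ligand Delta had a log2 fold change of -0.55 (SE 0.25). The 7 fat body markers summed to 7671 and 11412 CPM in WT against 4420 and 4822 in wh7, but 2 of 7 were higher. Transcripts of the mitochondrial genome were at 27444 and 36147 CPM in WT against 38190 and 33393 in wh7. The part of these shifts in the RpL values was not tested.

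Of the 54 RpL genes, 51 had enough counts to be tested, and 49 of these had a higher mean in wh7 than in WT. No single gene passed edgeR's quasi-likelihood test at an adjusted p under 0.05, a threshold that 52 of all 10795 genes tested passed (0.482%). The smallest adjusted p belonged to RpL39 and was 0.159. At an unadjusted p under 0.05, 21 of the 51 were higher, against 7.23% of all genes tested, and 0 were lower, against 7.32%. In 45 of the 51 both wh7 libraries lay above both WT libraries, which held for 23.8% of all genes tested. In none did both lie below, which held for 22.9% of all genes. These counts are descriptions across genes of the same 4 libraries, and the genes are not independent replicates. With 2 libraries per genotype, an exact two-sided permutation test cannot give a p below 0.33 for any single value.

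The 44 genes without a paralog label formed a narrow band. All 44 had a mean that was higher in the mutant, with a median log2 fold change of 0.35, quartiles of 0.29 and 0.43, and a range from 0.01 (RpL35A) to 0.59 (RpL39). Over all genes tested 47.4% were higher, the median was -0.02, and the quartiles lay at -0.30 and 0.23. The median RpL gene of this group stood at percentile 82.1 of all genes tested. The shift of each gene was modest against the spread of all genes, RpL39, the furthest, standing at percentile 89.2.

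**Figure D1:**
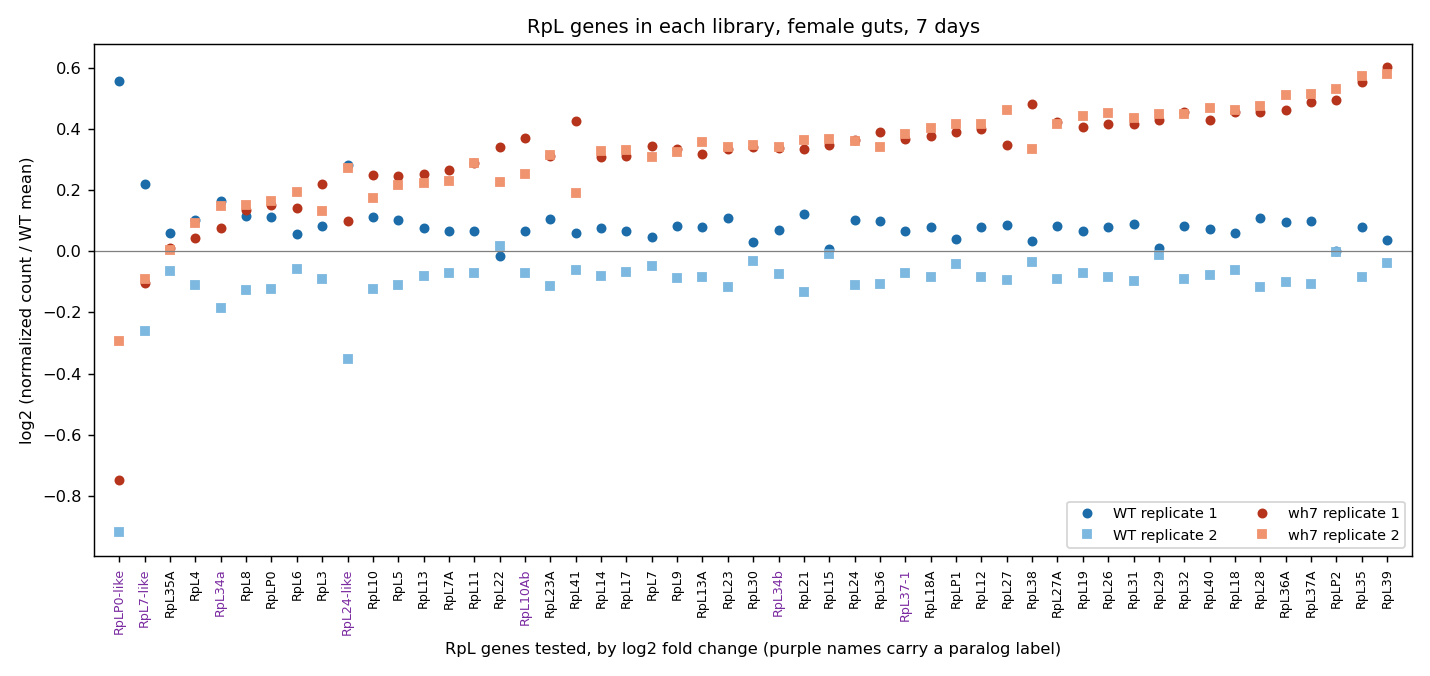
Log2 of the normalized count in each library relative to the WT mean, for the 51 RpL genes tested, ordered by log2 fold change of wh7 against WT; blue marks are WT and red marks are wh7, circles replicate 1 and squares replicate 2. In 45 of the 51 genes both red marks lie above both blue marks, and the other 6 are RpLP0-like, RpL7-like, RpL35A, RpL4, RpL34a and RpL24-like.

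The libraries of each genotype did not lie equally close together. Relative to the mean of the 4 libraries, the median of the 44 genes was at -0.11 and -0.25 (log2) in WT replicates 1 and 2, and at 0.18 in both wh7 libraries. WT replicate 2 was below WT replicate 1 in 43 of the 44, with a median difference of -0.16, against the 0.35 between the genotypes. Between the wh7 libraries the median difference was 0.01. The 4 differences between a wh7 and a WT library had medians from 0.27 to 0.45, all larger than the distance within either genotype. In the summed counts the RpL genes took 2.64% and 2.19% of all counts in WT against 2.97% and 3.05% in wh7. The RpS genes took 1.51% and 1.23% in WT against 1.72% and 1.76% in wh7. The ratio of RpL to RpS counts was 1.75 and 1.78 in WT against 1.73 in both wh7 libraries, so the transcripts for the subunits kept nearly the same proportion in all 4 libraries.

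**Figure D2:**
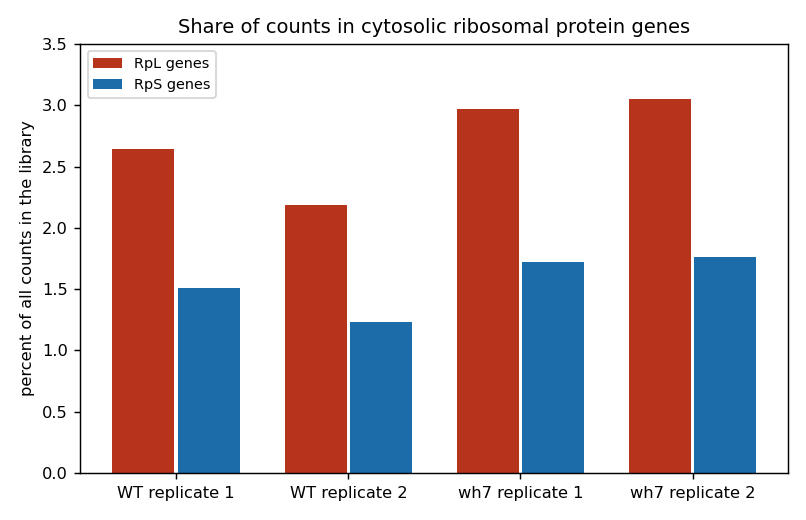
Percent of all counts of each library that fell in RpL genes (red bars) and in RpS genes (blue bars). The RpL share was 2.64% and 2.19% in WT against 2.97% and 3.05% in wh7, and the RpS share ordered the libraries the same way.

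The genes were then read by the place of their proteins in the subunit, as known from yeast and human ribosomes. Around the exit tunnel and its rim, all 8 genes were higher, with a median log2 fold change of 0.43, and 5 had an unadjusted p under 0.05. Of all 44 genes without a paralog label, 44 were higher and 20 had an unadjusted p under 0.05. Over all genes tested, 47.4% were higher, and 7.23% were higher with an unadjusted p under 0.05. The counts by site are descriptions of small groups. RpL39 is a very short protein in the wall of the tunnel, and its gene, like others of the RpL set, overlaps another coding gene. RpL39 had 8528 and 8084 normalized counts in WT against 12610 and 12425 in wh7. Both wh7 values lay well above both WT values, and the log2 fold change was 0.59 (SE 0.13), the highest of all RpL genes, with an adjusted p (edgeR's quasi-likelihood test) of 0.159. RpL35, at the rim where the signal recognition particle docks, had 52452 and 46856 in WT against 72955 and 73938 in wh7. The log2 fold change was 0.56 (SE 0.14), with an adjusted p of 0.202 from edgeR's test. RpL4, which also lines the tunnel and is among the longest of the proteins, had 124118 and 106995 in WT against 118989 and 123314 in wh7. Its genotypes overlapped, and its log2 fold change was 0.07 (SE 0.15), so genes for neighbouring proteins of the tunnel lay at both ends of the RpL range. These genes also differ in coding length, with 153 bases for RpL39, 369 for RpL35 and 1203 for RpL4. The parts of site and length were not tested. RpL17, RpL19, RpL23A, RpL26 and RpL31 lay between, from 0.31 to 0.43.

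The stalk genes were likewise spread, and their coding lengths ran from 336 bases (RpLP1) to 951 (RpLP0), so that site and length were not separated. RpLP2, an acidic protein of the stalk that contacts the elongation factors, had 57148 and 56971 normalized counts in WT against 80464 and 82409 in wh7. The WT libraries nearly coincided and both wh7 libraries were above them, with a log2 fold change of 0.51 (SE 0.13) and an adjusted p (edgeR's test) of 0.209. Its partner RpLP1 had 67669 and 64030 in WT against 86373 and 87842 in wh7, for a log2 fold change of 0.40 (SE 0.14). RpLP0, the base on which these proteins sit, had 96398 and 81881 in WT against 99120 and 99996 in wh7. The genotypes of RpLP0 did not overlap, but WT replicate 1 came close to the wh7 values, and the log2 fold change was 0.16 (SE 0.16). RpL12, beside the base of the stalk, was at 0.41. Of these 4 genes, 3 had an unadjusted p under 0.05, against 20 of the 44 genes without a paralog label and 7.23% of all genes tested. The median of the 4 was 0.41, against 0.35 over the 44.

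The genes of the catalytic centre lay low in the band, with a median of 0.18 and none at an unadjusted p under 0.05. Each has 600 coding bases or more, and the 15 genes of that length without a paralog label had a median of 0.24. Site and length were not separated. RpL3, which reaches towards the catalytic site, had 101926 and 90329 normalized counts in WT against 112058 and 105421 in wh7, for a log2 fold change of 0.18 (SE 0.15). RpL8, a core protein of the same site, had 73193 and 61926 in WT against 74263 and 75061 in wh7, for a log2 fold change of 0.14 (SE 0.16). RpL10, which joins late in assembly and whose loop lies near the transfer RNA, had 49441 and 41970 in WT against 54384 and 51548 in wh7. In all of these genes both wh7 libraries were above both WT libraries, but the gap between the genotypes was smaller than the distance between the WT libraries. The log2 fold change of RpL10 was 0.21 (SE 0.15).

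RpL5 and RpL11 bind the 5S ribosomal RNA and, in mammals, hold back MDM2 when assembly fails. RpL5 had 64610 and 55869 normalized counts in WT against 71477 and 70075 in wh7, for a log2 fold change of 0.23 (SE 0.15). RpL11 had 32797 and 29844 in WT against 38225 and 38265 in wh7, for a log2 fold change of 0.29 (SE 0.14). For both, the wh7 libraries were above the WT ones. On the face towards the small subunit, the 5 genes had a median of 0.34. RpL40, made as a fusion with ubiquitin and joined late, had 38942 and 35075 in WT against 49838 and 51255 in wh7. The log2 fold change was 0.45 (SE 0.14), the highest of that face. RpL41, the shortest of all with 25 residues, had 29986 and 27592 in WT against 38666 and 32872 in wh7. Its wh7 libraries were further apart than its WT libraries, with a log2 fold change of 0.31 (SE 0.16).

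The other 22 genes had a median of 0.36 and spanned 0.01 to 0.50. Of the 22, 11 had an unadjusted p under 0.05, against 20 of all 44 and 7.23% of all genes tested. RpL37A, a zinc-binding protein, had 19181 and 16614 normalized counts in WT against 25096 and 25572 in wh7. Its change on the log2 scale was 0.50 (SE 0.14), followed by RpL36A, near the exit site of transfer RNA, at 0.49 (SE 0.15) from 32822 and 28636 in WT against 42294 and 43820 in wh7. RpL28 had 45365 and 38826 in WT against 57686 and 58482 in wh7, for a log2 fold change of 0.46 (SE 0.15). For these genes the wh7 libraries lay close together and above both WT libraries. RpL18 had 47365 and 43596 in WT against 62446 and 62643 in wh7, for a log2 fold change of 0.46 (SE 0.14). RpL29 had 12694 and 12503 in WT against 16973 and 17206 in wh7, with a log2 fold change of 0.44 (SE 0.13). Replicates of RpL29 were among the closest of all, and its adjusted p was 0.242 by edgeR's quasi-likelihood test.

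At the lower end, RpL35A had 32502 and 29844 normalized counts in WT against 31404 and 31269 in wh7. Both wh7 values fell between the WT values, and the log2 fold change was 0.01 (SE 0.13). RpL35A, whose human ortholog is mutated in some families with Diamond-Blackfan anaemia, and RpL4 were the 2 genes without a paralog label whose genotypes overlapped. RpL6, a protein of the outer surface, had 90197 and 83433 in WT against 95785 and 99414 in wh7. There the genotypes did not overlap, and the log2 fold change was 0.17 (SE 0.14).

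The size of the shift went with the length of the protein. Over the 44 genes without a paralog label, the log2 fold change had a Spearman rho of -0.72 with the longest annotated coding length, and a Pearson r of -0.59 with its log2, shorter genes being shifted further. This is a description across genes of the same 4 libraries, and genes are not independent replicates. The 13 genes under 400 coding bases had a median of 0.44 (range 0.31 to 0.59). The 16 genes from 400 to under 600 bases had 0.38, and the 15 genes of 600 bases or more had 0.24 (range 0.07 to 0.43). Genes that were higher with an unadjusted p under 0.05 numbered 10, 8 and 2 in these classes. Over all coding genes they were 53 of 734, 73 of 832 and 605 of 8477. RpL41, with 75 coding bases, and RpL35A, with 471, were the lowest of the shortest and of the middle class. Without RpL41, rho over 43 genes was -0.78.

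**Figure D3:**
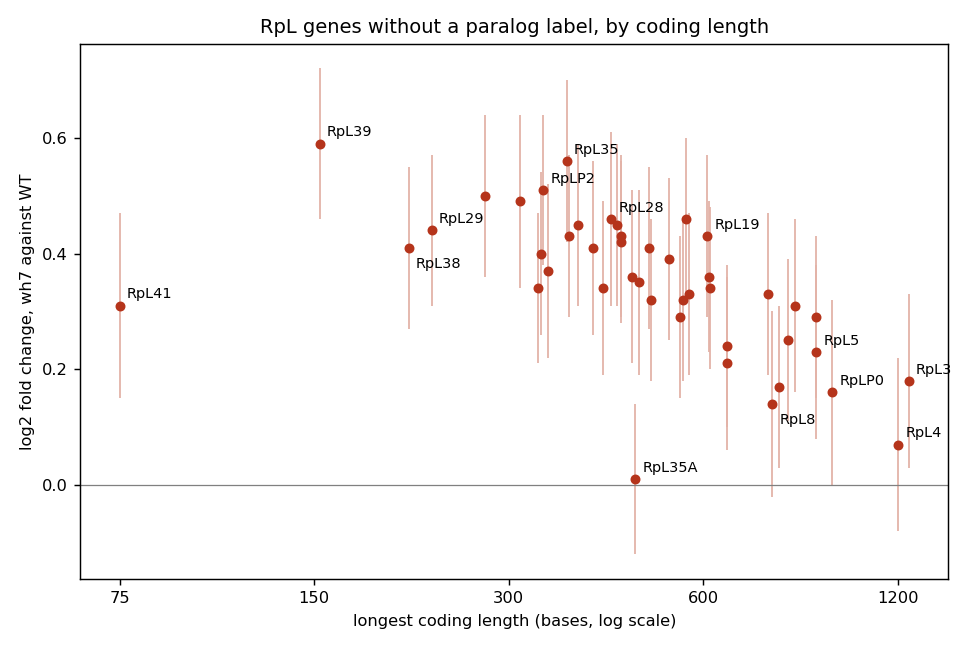
Log2 fold change of wh7 against WT with its standard error, against the longest annotated coding length on a log axis, for the 44 RpL genes without a paralog label. The points descend from RpL39 at 0.59 to RpL4 at 0.07, with RpL41 (0.31) and RpL35A (0.01) lowest in their length classes.

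The 35 RpS genes tested, paralog-labelled ones included, gave a rho of -0.59, with medians of 0.40, 0.40 and 0.17 in the same length classes. No such relation was seen over all 10043 coding genes tested, where rho was -0.01 and the medians were -0.01, -0.02 and -0.02. Nor was it of that size in the 47 genes for the mitochondrial large subunit (mRpL), where rho was -0.12. For the RpL genes, rho was -0.23 for the difference between the WT libraries and -0.12 for that between the wh7 libraries. It lay between -0.61 and -0.74 in the 4 differences between a wh7 and a WT library, which share libraries with each other. For the RpS genes rho was -0.46 between the WT libraries and 0.09 between the wh7 libraries, against -0.42 to -0.61 across the genotypes, so that it was as large between the WT libraries as in some differences between the genotypes. With each library left out in turn, rho over the 44 RpL genes ranged from -0.66 to -0.77. Total exon length gave a rho of -0.47, and the mean CPM one of -0.35.

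Levels between genes were compared per length, as counts per kilobase of annotated exon scaled to the same sum in each library (TPM-like). By this measure RpL38 was the lowest of the genes without a paralog label in every library, at 106 and 91.9 in WT against 137 and 127 in wh7. RpL23, at the face where the small subunit and the factor eIF6 bind, was the highest, at 2700 and 2105 in WT against 2982 and 3102 in wh7. The median gene was at 1020 and 850 in WT and at 1152 and 1184 in wh7. The order of the genes by level was nearly the same throughout, with a Spearman rho of at least 0.972 between any pair of libraries. Genes that host small nucleolar RNAs in their introns (15 genes with 32 of them) had a median log2 fold change of 0.32, and the 29 others had 0.40. By chromosome arm, the medians were 0.36 (2L), 0.41 (2R), 0.32 (3L), 0.18 (3R) and 0.32 (X), and 3R carries RpL3, RpL4, RpL6 and RpL35A.

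The paralog-labelled genes fell into genes at the level of the unlabelled ones, genes with lower counts, and genes without reads. RpL10Aa, RpL37-2 and RpL22-like had 0 counts in all 4 libraries. A count of 0 allows up to 3 counts, or 0.032 CPM in the smallest library, for counting error only. RpL22-like is known as a ribosomal protein of the male germline, and the 6 testis markers were also at 0 in these female guts.

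RpL10Ab, RpL34b and RpL37-1 were at the level of unlabelled genes and moved with them. RpL10Ab had 31019 and 28203 normalized counts in WT against 38320 and 35300 in wh7, for a log2 fold change of 0.31 (SE 0.14). RpL34b had 31229 and 28239 in WT against 37610 and 37647 in wh7, for a log2 fold change of 0.34 (SE 0.14). RpL37-1 had 50470 and 45875 in WT against 62086 and 62846 in wh7, for a log2 fold change of 0.37 (SE 0.14). In all of these the wh7 libraries were above the WT ones, and RpL37-1 was the paralog-labelled gene with an unadjusted p under 0.05.

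The other 4 labelled genes had overlapping genotypes. RpL34a had 5553 and 4364 normalized counts in WT against 5225 and 5500 in wh7, for a log2 fold change of 0.11 (SE 0.17). Reads of RpL34a and RpL34b, which encode closely related proteins, could have been split between them in counting. RpL24-like, whose yeast counterpart Rlp24 holds the place of the RpL24 protein during assembly, had 7553 and 4864 in WT against 6652 and 7498 in wh7. Its WT replicates spanned both wh7 values, with a log2 fold change of 0.19 (SE 0.25). RpL7-like, the counterpart of the yeast assembly factor Rlp7, had 4124 and 2959 in WT against 3299 and 3328 in wh7, for a log2 fold change of -0.10 (SE 0.21). RpLP0-like, the counterpart of yeast Mrt4, which precedes the stalk base during assembly, had 4040 and 1452 in WT against 1635 and 2240 in wh7. WT replicate 1 was far above the other 3 libraries for RpLP0-like, and the log2 fold change was -0.50 (SE 0.53). The direction of these genes rested on single WT libraries. Without WT replicate 1 RpLP0-like was at 0.42 and RpL7-like at 0.16. Without WT replicate 2 they were at -1.07 and -0.32, RpL24-like was at -0.10 and RpL34a at -0.06.

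Set against their namesakes, the labelled genes with lower counts had a small part of the counts. In counts not scaled by length, there were 17.8 and 15.5 of RpL34a per 100 of RpL34b in WT against 13.9 and 14.6 in wh7. Scaled by exon length (TPM-like), these were 26.5 and 23.1 in WT against 20.7 and 21.8 in wh7. Per 100 of RpL7 there were 6.16 and 4.72 of RpL7-like in WT against 4.01 and 4.14 in wh7 (scaled by length, 4.01 and 3.08 against 2.61 and 2.7). In both pairs the wh7 libraries lay below both WT libraries. The log2 fold changes were 0.11 for RpL34a against 0.34 for RpL34b, and -0.1 for RpL7-like against 0.33 for RpL7. Per 100 of RpL24 there were 15.6 and 11.7 of RpL24-like in WT against 11.5 and 13 in wh7 (scaled by length, 25.6 and 19.1 against 18.8 and 21.2). Per 100 of RpLP0 there were 4.19 and 1.77 of RpLP0-like in WT against 1.65 and 2.24 in wh7 (scaled by length, 5.87 and 2.48 against 2.31 and 3.14). In the last 2 pairs the wh7 values straddled WT replicate 2, and WT replicate 1 was the highest library.

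**Figure D4:**
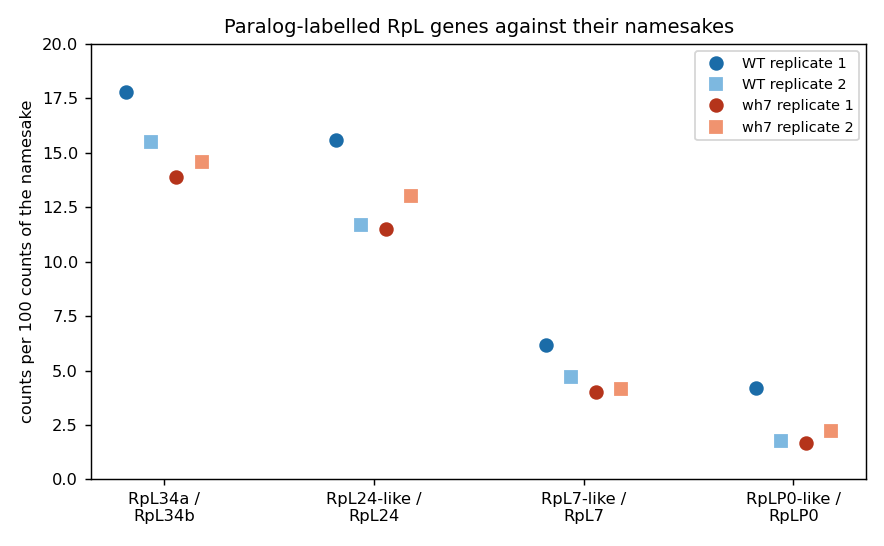
Counts of 4 paralog-labelled RpL genes per 100 counts of the namesake gene in each library, not scaled by exon length. Blue marks are WT, red marks wh7. WT replicate 1 is the highest library in all 4 pairs, with 17.8 for RpL34a and 4.19 for RpLP0-like.

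Other genes of ribosome production were read for comparison, from lists chosen by symbol or function. Of the 35 RpS genes tested, 33 were higher, against 47.4% of all genes tested, and none passed the adjusted threshold. At an unadjusted p under 0.05, 18 of the 35 were higher, against 7.23% of all genes tested. Their median, paralog-labelled RpS genes included, was 0.37. It lay next to the 0.35 of the 44 RpL genes without a paralog label and the 0.34 of all 51 tested. The 47 mRpL genes, which belong to the ribosome of mitochondria, had 18 higher and 29 lower, with a median of -0.13. At an unadjusted p under 0.05, 2 of the 47 were lower, against 7.32% of all genes tested, and 0 were higher, against 7.23%. WT replicate 1 was high for the mRpL genes, at 0.30 (log2) relative to the mean of the libraries, against -0.21 in WT replicate 2. Leaving out WT replicate 1 put their median at 0.19, and leaving out WT replicate 2 put it at -0.33.

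A list of 24 factors that assemble the large subunit or work in the nucleolus had 20 lower and 4 higher, with a median of -0.44. None had an unadjusted p under 0.05. For Fib, the methyltransferase of the nucleolus, the normalized counts were 8014 and 1817 in WT against 2002 and 2809 in wh7, so that WT replicate 1 alone was high. Nop60B, the pseudouridine synthase of small nucleolar particles, had 17919 and 5404 in WT against 6093 and 7509 in wh7. eIF6, which keeps the subunits apart until assembly is complete, had 5117 and 2009 in WT against 3488 and 4363 in wh7. Without WT replicate 1 the median of the list was 0.35, with 23 of 24 higher. Without WT replicate 2 it was -0.98, with 22 lower and 11 at an adjusted p under 0.05 by edgeR's test. In that fit 921 of 11172 genes passed, and the spread came from the wh7 libraries alone, the lone WT library being assumed to vary like them. The direction of this list in wh7 was thus set by which WT library was used, whereas that of the 44 RpL genes was not, their median being 0.45 without WT replicate 1 and 0.29 without WT replicate 2.

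**Figure D5:**
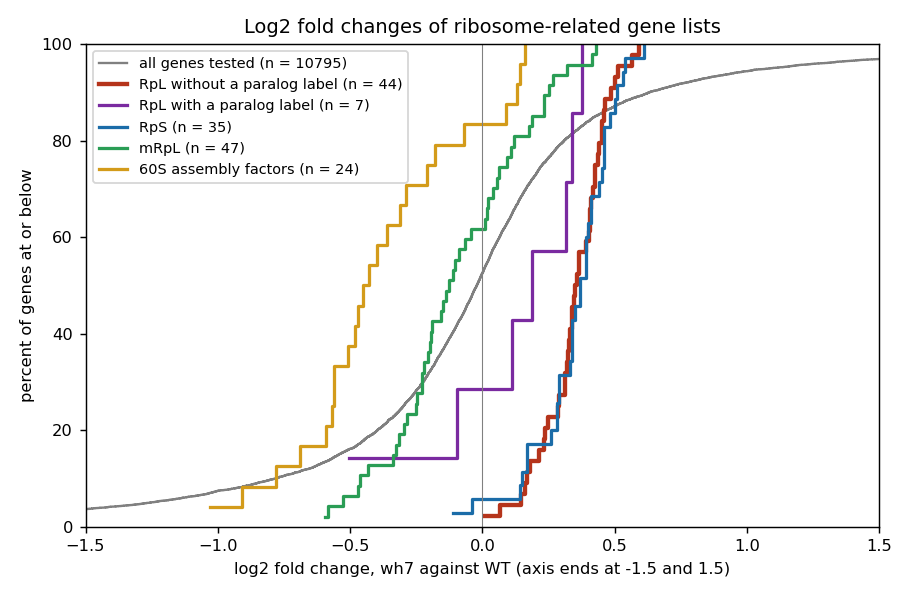
Cumulative percent of genes at or below each log2 fold change of wh7 against WT, for RpL genes without and with a paralog label, RpS genes, mRpL genes, 60S assembly factors and all genes tested. The curves of unlabelled RpL genes (median 0.35) and RpS genes (0.37) nearly coincide to the right of that of all genes (-0.02). The assembly factors lie to the left (-0.44), a side they leave without WT replicate 1 (0.35).

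Of 10 regulators of ribosomal protein genes and growth, 5 were higher, with a median of 0.04 and none at an unadjusted p under 0.05. Myc, the growth regulator that drives ribosome genes, had 25034 and 28462 normalized counts in WT against 28142 and 23498 in wh7, for a log2 fold change of -0.05 (SE 0.17). S6k, a kinase downstream of TOR, had 24550 and 27628 in WT against 36822 and 31764 in wh7, for a log2 fold change of 0.39 (SE 0.16) with an adjusted p of 0.372 from edgeR's test. The gene of TOR itself, mTor, had 10226 and 9568 in WT against 8994 and 8218 in wh7, at -0.2 (SE 0.13). Both wh7 libraries lay above both WT libraries in 3 of the 10 regulators, against 23.8% of all genes tested. Both lay below in 1, mTor, against 22.9%. Thor, the inhibitor of cap-dependent translation, had 5820 and 31969 in WT against 22870 and 18661 in wh7. Its WT libraries were the lowest and the highest of the 4, and the genotypes overlapped.

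The calls on single RpL genes depended on the test. DESeq2's Wald test on the same counts called RpL39 (adjusted p = 0.0122), RpL35 (adjusted p = 0.0288) and RpLP2 (adjusted p = 0.0293) as higher, 3 of the 51, where it called 3.94% of all genes tested as higher. Left without WT replicate 1, 41 of the 51 RpL genes had an unadjusted p under 0.05 and were higher (1381 of 11104 over all genes). Without WT replicate 2 there were 22 (1714 of 11172). With wh7 replicate 1 or wh7 replicate 2 left out, none had by edgeR's test, against 322 of 11163 and 338 of 11153 over all genes. In each of these fits the spread came from the genotype that kept 2 libraries. No RpL gene passed an adjusted p under 0.05 by edgeR's test with any library left out.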

How the data were processed

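RNA-seq reads of 4 gut libraries were trimmed by the authors with Trimmomatic 0.36, aligned with HISAT2 and quantified with StringTie 2.1.4, as the submitters' processing notes and the methods state. The authors deposited raw counts per gene as whole numbers. How the counts were made from StringTie's estimates, the genome build and the use of strand are not given in the sources used here. Without strand, reads of overlapping or antisense genes cannot be told apart, and 16 RpL genes overlap another coding gene. Beside RpL39, these include RpL18, RpL23, RpL28, RpL29, RpL36A, RpL10Ab, RpL7-like, RpL24-like and RpLP0-like. A second deposited table of the authors' own comparison (fold changes, p-values and normalized counts) was not used.

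After edgeR's filterByExpr, 10795 of 17807 genes were scaled by TMM and compared by edgeR's quasi-likelihood test (edgeR 4.0.16, R 4.3.3) with genotype as the only term. Benjamini-Hochberg adjustment covered all genes tested, with a threshold of 0.05. SE was taken as the log2 fold change over the root of the F statistic. Libraries were grouped by their labels, and p-values measure the spread between 2 pools of guts per genotype. Percentiles are among all genes tested. Symbols matched 17710 identifiers. Coding and exon lengths, arms and small nucleolar RNAs came from the annotation of BDGP6.54 (Ensembl release 115), whose coordinates are not given because the authors' build is not stated. Alternatives were DESeq2 1.42.0, limma 3.58.1, other scalings and filters, each library left out, and a replicate block.

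RpL genes named one by one are those with a paralog label, the 6 highest and 6 lowest of the others, the 3 further genes of smallest p, the stalk genes, RpL5, RpL11, RpL10, RpL40, RpL39 and RpL41. RpL23 and RpL38, and factors outside the RpL set, were named after their values were seen. RpL12, RpL17, RpL19, RpL23A, RpL26 and RpL31 were named outside this rule, as members of their sites, and RpL7 and RpL24 as namesakes. The members, lists and roles were chosen with earlier results of these data known. The fit was tested on simulated data with 200 changed genes. Each was changed by more than any RpL gene differed in the main fit, so shifts of the RpL size were not covered. No sequence is printed.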

Additional observations from a re-analysis of the deposited data

How the results depend on the processing

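The count of RpL genes with a higher mean, of genes without overlap and the median of the 44 genes stayed within 1.5 times or 0.07 of the values given under other scalings, filters and tests, and all 351 settings of single genes but 10 kept direction and side of the threshold. Over all genes, 52 were called; 30 were called with no filter on low counts, 82 by limma-trend, and 859 by DESeq2's Wald test, which also called 3 RpL genes (RpL39 at 0.59, RpL35 at 0.57, RpLP2 at 0.51). With total counts in place of TMM, 12 RpL genes in place of 21 were higher at an unadjusted p under 0.05 (783 and 780 over all genes). With a library left out, the count over all genes ranged from 0 to 921, and the median of the 44 RpL genes from 0.29 to 0.45. Directions turned in this way for RpLP0-like (-1.07 to 0.42), RpL7-like (-0.32 to 0.16), RpL24-like (-0.10 to 0.54), RpL34a (-0.06 to 0.30), RpL35A (-0.06 to 0.07) and RpL4 (-0.04 to 0.18); the cause was not tested.

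Deviations of same-numbered libraries had a correlation of -0.155 over 10795 genes, so the replicate numbers were not taken to pair the libraries. With the number as a replicate block, 0 genes were called over all, 0 RpL genes were called, 1 was higher at an unadjusted p under 0.05 (519 over all 10795 genes) and the median was 0.36. With the numbers crossed, chosen after seeing the data, 99 genes were called over all, and 6 RpL genes were higher at an unadjusted p under 0.05 (789 over all genes). Each library held at least 93603837 counts; the part of depth, of the spread between pools and of the choice of test in the lack of calls was not tested.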
